A study of Drosophila melanogaster with 22 samples.

Results

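The Jun N-terminal kinase (JNK) pathway is a stress and wound signalling cascade. In Drosophila the ligand Eiger, a member of the tumour necrosis factor family, binds the receptors Grindelwald and Wengen, and a chain of kinases then activates the JNK Basket, which acts on the AP-1 transcription factors Jun and Fos. AP-1 switches on, among others, the phosphatase Puckered, which turns Basket off again. In larval blood, overactive JNK signalling is known to give rise to lamellocytes, the large flat cells that wall off the eggs of parasitic wasps, and reporters inserted in misshapen are a usual lamellocyte marker.

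The 10 core genes described here are the ligand gene eiger (egr), the receptor genes grindelwald (grnd) and wengen (wgn), the kinase genes misshapen (msn), slipper (slpr), hemipterous (hep) and basket (bsk), the AP-1 genes Jun-related antigen (Jra, Drosophila Jun) and kayak (kay, Drosophila Fos), and the feedback phosphatase gene puckered (puc). They were chosen by their known place in the pathway, with earlier results of these data known. All 10 were found among the 13853 genes listed in the nanopore count tables and among the 18068 genes of the Illumina tables. In 16 nanopore libraries 8 of the 10 passed the filter on low counts and entered the tests among 7076 genes, while grnd and wgn did not.

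Larvae of Drosophila melanogaster, strain Oregon R (OreR in the labels), were sampled 96 h or 120 h after egg laying (AEL), either uninfested (called normal) or after infestation by wasps. No transgene or mutation is named in the labels, and all groups share the strain. Circulating hemocytes (blood) were freed by shaking 100 to 150 larvae per condition with glass beads and opening 10 larvae per replicate, and lymph glands, the larval blood-forming organ, were dissected, so each library pools animals. Polyadenylated RNA was read as full-length cDNA on the Oxford Nanopore platform in 17 libraries and as short reads on the Illumina platform in 5.

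The nanopore groups made with the SQK-PCB109 kit were normal lymph gland at 96 h (n = 3), infested lymph gland at 96 h (n = 3), normal blood at 96 h (n = 2), infested blood at 96 h (n = 3), normal blood at 120 h (n = 2) and infested blood at 120 h (n = 3). The 96 h infested samples were taken 24 h and the 120 h infested samples 48 h after infestation, so age and time since infestation cannot be told apart within infested blood. A single 120 h normal lymph gland library was made with another kit, SQK-PCS109. The Illumina libraries, 1 per condition, covered infested lymph gland at 96 h and the 4 blood conditions. Labels do not say whether replicates came from separate cohorts of larvae, and p-values then measure the spread between these libraries, which may be technical.

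Gene counts per library lay between 356632 in infested lymph gland replicate 2 and 2079764 in 120 h normal blood replicate 2, with 6223590 in the 120 h lymph gland, and the Illumina libraries held 14750855 to 24307061 estimated counts. In blood, replicates 2 and 3 of a group differed by 2.67 to 3.18 in chi-square per gene, against 6.15 to 20.4 for the other replicate pairs, and all differed by more than sampling noise. The labelled tissues carried their markers. The lymph gland niche gene Antp had 9.24 to 22.1 CPM (counts scaled to a common library total) in the 6 gland libraries at 96 h and no more than 0.664 CPM in blood, and the plasmatocyte gene Hml was at or above 108 CPM in each of the 16 libraries. Lamellocyte markers separated infested from normal libraries in every stratum. The summed level of 9 matched markers was 182 to 246 CPM in normal and 1698 to 2356 CPM in infested lymph gland, 261 to 298 and 4153 to 4399 CPM in 96 h blood, and 397 to 415 and 10828 to 14640 CPM in 120 h blood. Of these markers, atilla was at 0 in 2 normal gland libraries and both 96 h normal blood libraries, and PPO3 in 2 normal gland libraries and 1 normal 96 h blood library. Other cell types moved with the groups too. Summed midgut markers were 0 to 6.45 CPM in normal and 136 to 2263 CPM in infested lymph gland, and crystal cell markers 3522 to 5899 and 309 to 498 CPM. In such bulk samples a change in the number of cells of a type and a change in RNA per cell cannot be told apart, and the part of cell make-up in the results below was not tested.

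**Figure D1:**
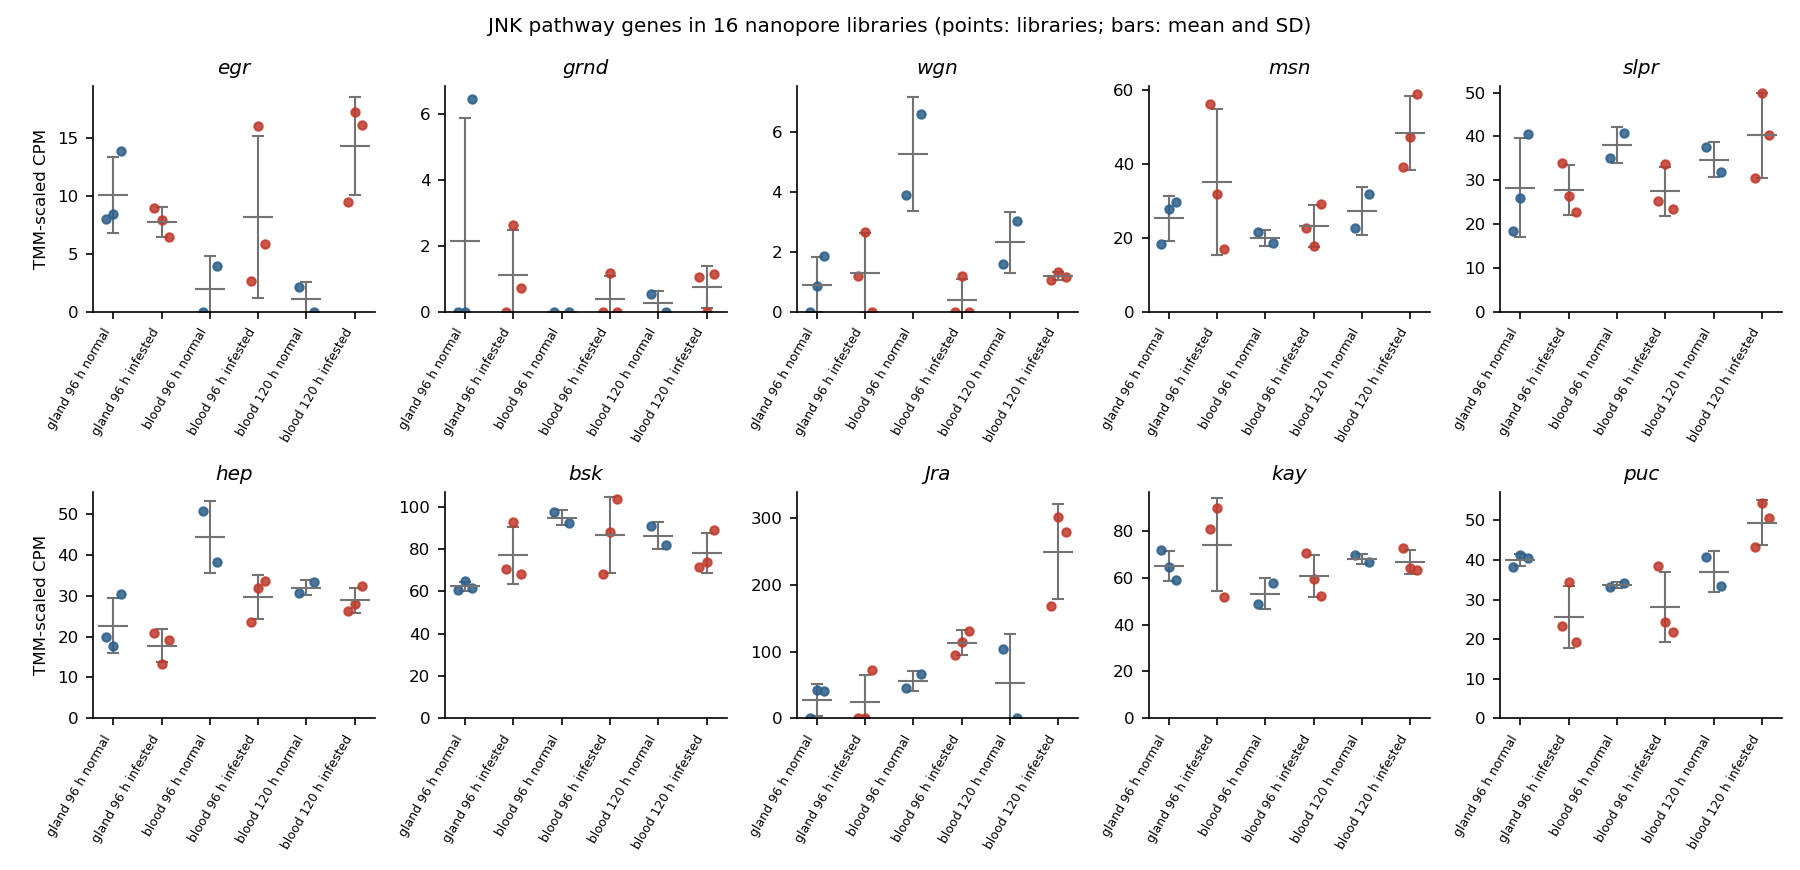
Level of the 10 JNK pathway genes in 16 nanopore libraries, as CPM after TMM scaling, on axes that start at 0. Points are libraries (blue normal, red infested) and bars the group mean and SD. The red points of egr at 120 h in blood, at 9.49 to 17.3 CPM, lie above both blue points, and Jra is at 0 in 4 libraries.

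Levels were compared between genes only in the Illumina tables, as TPM, the share of all transcripts corrected for their length. Jra had the highest median over the 5 libraries, 104 TPM, followed by kay at 99.4 TPM, msn at 94.4 TPM and bsk at 69.7 TPM. The ranges of Jra, kay and msn overlapped each other, and that of bsk, at 66.4 to 73.1 TPM, overlapped those of kay and msn but lay below that of Jra, at 81.0 to 192 TPM. Next came puc at 32.8 TPM and hep at 29.4 TPM, whose ranges also overlapped, then egr at 18.1 TPM and slpr at 9.85 TPM. The range of egr, 4.90 to 28.1 TPM, overlapped those of puc and hep and held all of that of slpr, 8.43 to 11.8 TPM. The receptor genes were the lowest, wgn at 1.09 to 2.38 TPM and grnd at 0.140 to 0.680 TPM, with no overlap between them or with any other member. Among the 8 tested members egr had the widest range for its level, from 4.90 TPM in normal blood at 96 h to 28.1 TPM in infested blood at 120 h.

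**Figure D2:**
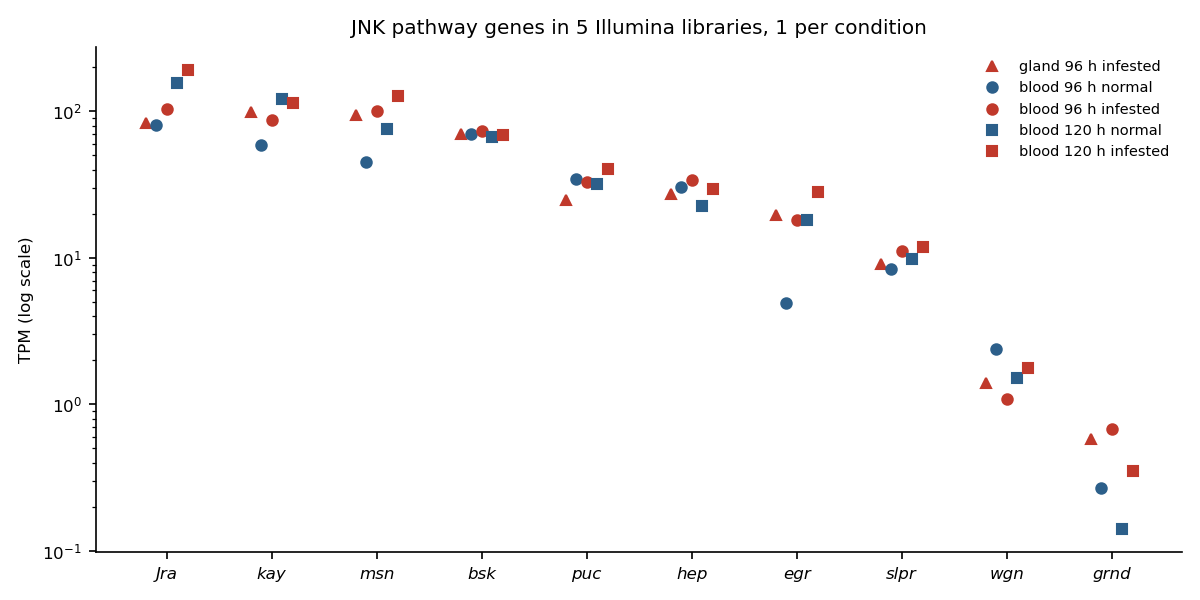
Illumina level of the 10 genes in TPM on a log axis, ordered by median, 1 library per condition (triangle lymph gland 96 h, circles blood 96 h, squares blood 120 h, red infested, blue normal). Jra, kay, msn and bsk form the upper group and wgn and grnd lie lowest, grnd at or below 0.680 TPM.

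The ligand gene egr (FBgn0033483, chromosome 2R, 10078366 to 10084210, plus strand) was higher in infested than in normal blood at 120 h. Its 3 infested libraries had 9.49, 17.3 and 16.1 CPM, and the 2 normal libraries 2.11 and 0 CPM, where the normal group holds 4 counts in total and 3 counts equal 1.58 CPM in the first and 4.55 CPM in the second. All 3 infested libraries lay above both normal ones. The log2 fold change was 3.17 ± 0.84 (SE; edgeR quasi-likelihood test, Benjamini-Hochberg adjusted p = 0.0154 over all genes tested), and egr was the 1 of 8 tested members called, where 19.4% of all genes were called in that comparison. The call ended without normal replicate 2 (adjusted p = 0.0698) or normal replicate 3 (adjusted p = 0.0848) in edgeR's test, and without replicate 2 the fitted value of 6.91 rests on a control at 0 and gives no fold. Adding blood replicates 2 and 3 into 1 sample per group ended it as well (edgeR adjusted p = 0.0865).

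At 96 h egr had 0 and 3.95 CPM in normal blood and 2.62, 16 and 5.84 CPM in infested blood. Of the 27 counts behind the 16 CPM of infested replicate 2, 0 were assigned to an isoform, against 3 of 3 and 4 of 4 in replicates 1 and 3. The groups overlapped, and the log2 difference of 1.89 ± 0.96 was not called (edgeR adjusted p = 0.331). In lymph gland egr stood at 7.98, 8.40 and 13.8 CPM in normal and 8.96, 7.94 and 6.40 CPM in infested libraries, again overlapping. A test of the difference in infestation effect gave a log2 value of 2.25 ± 1.14 between 96 h blood and gland and 1.28 ± 1.47 between 120 h and 96 h blood, neither called (edgeR adjusted p = 0.692 and 0.790). The Illumina libraries gave 35.6 CPM in infested gland, 8.15 and 29.5 CPM in normal and infested blood at 96 h, and 31.7 and 46.8 CPM at 120 h. Infested blood was higher at both ages there. The log2 ratio was 1.39 at 96 h and 0.50 at 120 h, with no replicate check, and the 120 h normal library was well above zero where the nanopore libraries of that group listed 2.11 and 0 CPM.

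Both receptor genes were too low to pass the filter and were left out of the tests given here. In 9 of 16 nanopore libraries no count was listed for grnd (FBgn0032682, 2L, 18485417 to 18488021, plus strand), and its highest value was 6.45 CPM, from 7 counts in normal lymph gland replicate 3. An exon of kon lies on the opposite strand at grnd, and how strand was used in the nanopore counting is not given in the sources used here. The other receptor gene, wgn (FBgn0030941, X, 18624042 to 18634908, minus strand), had 3.90 and 6.59 CPM in normal blood at 96 h and 0, 1.18 and 0 CPM in infested blood of that age, from 7 and 2 counts. In the Illumina pair wgn had 4.47 CPM in the normal and 2.01 CPM in the infested library at 96 h, and 3 and 3.32 CPM at 120 h. Differences of this size were not detectable at this depth.

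Of the 4 kinase genes, msn and hep each gave 1 call and slpr and bsk none. The Ste20-type kinase gene msn (FBgn0010909, 3L, 2554847 to 2586540, minus strand) acts at the top of the kinase chain. It was higher at 120 h than at 96 h in infested blood, with 39.0, 47.2 and 58.8 CPM against 22.7, 17.8 and 29.2 CPM. The 2 groups did not overlap. The log2 difference was 1.10 ± 0.36 (edgeR adjusted p = 0.0362), and msn and puc were the 2 of 8 members called there, where 24.4% of all genes were. The call for msn ended without 120 h replicate 2 or 3 or 96 h replicate 1 or 2 (edgeR adjusted p = 0.0787 to 0.159), with DESeq2 (adjusted p = 0.0567) and with replicates 2 and 3 summed (edgeR adjusted p = 0.157). Beside it, summed lamellocyte markers were 4153 to 4399 CPM at 96 h and 10828 to 14640 CPM at 120 h, and 7 of 9 tested markers, a list that leaves msn out, were called higher. Markers of other cell types also moved. Of plasmatocyte markers 7 of 10 were called lower, of crystal cell markers 5 of 8, of midgut markers 8 of 8 and of muscle markers 10 of 11, while 4 of 4 tested male germline markers were called higher. Summed midgut markers were 2685 to 3742 CPM at 96 h and 25.4 to 53.7 CPM at 120 h.

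Normal blood at 120 h had 22.7 and 31.8 CPM of msn, below all 3 infested libraries of that age, but the log2 difference of 0.87 ± 0.40 was not called (edgeR adjusted p = 0.151). In lymph gland the infested values of 56.1, 31.8 and 17.1 CPM straddled the normal values of 18.4, 27.7 and 29.5 CPM. In Illumina libraries msn had 227 CPM in normal and 495 CPM in infested blood at 96 h, a log2 ratio of 1.11, and 391 and 637 CPM at 120 h, a log2 ratio of 0.70. It was 1 of 2 members, with egr, past 2-fold in the 96 h pair, where 8.14% of genes at or above 10 CPM were past 2-fold and no test applies. None was in the 120 h pair, against 33.9% of genes, or in the infested age pair, against 10.7%, where msn gave a log2 ratio of 0.36. Between infested blood and gland at 96 h none was either, against 8.32% of genes.

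The JNK kinase gene hep (FBgn0010303, X, 13079205 to 13090434, minus strand), which encodes the kinase that phosphorylates Basket, differed between normal tissues at 96 h. Normal blood had 50.7 and 38.2 CPM and normal lymph gland 20, 17.6 and 30.4 CPM, with both blood libraries above all gland libraries. The log2 difference was 0.96 ± 0.28 (edgeR adjusted p = 0.0459). It was the 1 of 8 members called, against 7.50% of all genes. This call lies at the edge of the threshold. It ended under each of the 7 other fits and scalings run and without any one of 4 of the 5 libraries, staying only without normal gland replicate 3 (edgeR adjusted p = 0.0130, against 0.0539 to 0.327 in the others). In infested tissue hep had 23.5, 32.0 and 33.6 CPM in blood and 20.9, 13.2 and 19.2 CPM in gland, without overlap and not called (log2 difference 0.65 ± 0.25, edgeR adjusted p = 0.132). No member was called in that comparison, against 11% of all genes, where 1 member had an unadjusted p under 0.05 and DESeq2 called 0. In normal 96 h samples summed muscle markers were 3174 to 3721 CPM in blood and 1128 to 1286 CPM in gland, and plasmatocyte markers 61270 to 66397 and 45883 to 49282 CPM. Other lists differed by larger ratios. Prohemocyte markers were 242 to 253 CPM in blood and 2772 to 3168 CPM in gland, and crystal cell markers 13512 to 13539 and 3522 to 5899 CPM. Midgut markers were 297 to 300 and 0 to 6.45 CPM, and lymph gland niche markers 0 and 71.0 to 73.9 CPM. The part of these cells was not tested.

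The JNK kinase kinase gene slpr (FBgn0030018, X, 8170229 to 8177185, minus strand) ranged from 18.4 to 49.8 CPM over the 16 libraries, with log2 differences from -0.44 to 0.53 in the 7 comparisons of groups, none called. Its exons overlap CG2278 on the same strand. The JNK gene bsk itself (FBgn0000229, 2L, 10247502 to 10250501, minus strand) had 60.7, 64.7 and 61.8 CPM in normal gland and 97.5 and 92.3 CPM in normal blood at 96 h. The groups did not overlap, and the log2 difference of 0.60 ± 0.19 had an adjusted p of 0.0770 in edgeR's test. In lymph gland the infested libraries, at 70.5, 92.7 and 68.3 CPM, were above all normal ones. The log2 difference with infestation was -0.16 to 0.27 in the 3 strata, none called, and its Illumina level stayed between 77.9 and 86.5 CPM.

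**Figure D3:**
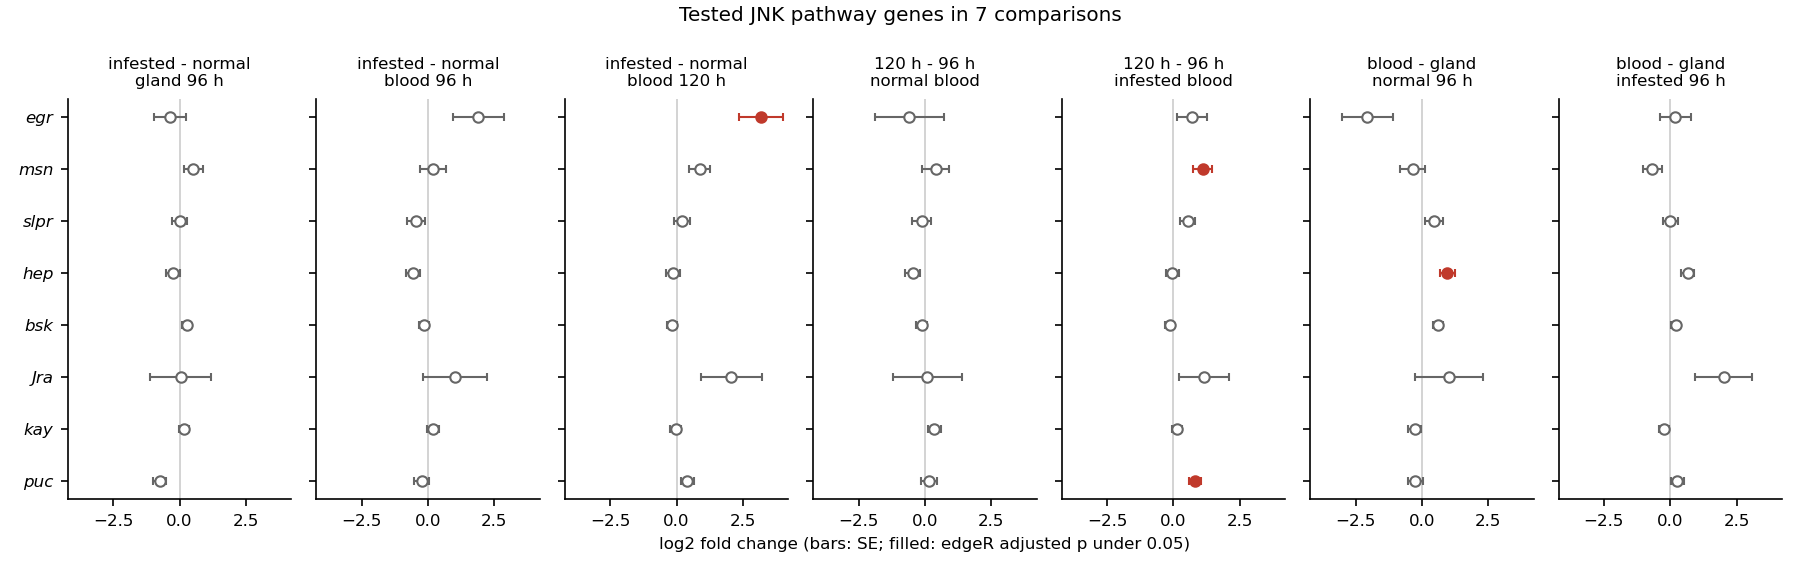
Log2 fold change (point) and SE (bar) of the 8 tested genes in 7 comparisons of nanopore groups. Filled red points passed an adjusted p of 0.05 in edgeR's test. They are egr with infestation in 120 h blood (3.17), msn (1.10) and puc (0.80) with age in infested blood, and hep between normal tissues (0.96).

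The Jun gene Jra (FBgn0001291, 2R, 10096480 to 10098556, plus strand) was listed at 0 in some libraries of a group and high in the others. Normal lymph gland had 0, 42.8 and 40.6 CPM and infested gland 0, 0 and 71.8 CPM. Normal blood had 44.8 and 65.9 CPM at 96 h and 105 and 0 CPM at 120 h, where 3 counts equal 4.55 CPM in the library at 0. Infested blood had 94.2, 114 and 131 CPM at 96 h and 169, 303 and 279 CPM at 120 h. Among all tested genes, 223 (3.15%) were likewise at 0 in a library while another library of its group had at least 20 CPM, and all 5 Illumina libraries held Jra, at 90.2 to 214 CPM. Jra overlaps RpLP0-like on the opposite strand. Why the gene was at 0 was not tested.

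Where no library of the groups compared was at 0, infested blood was higher in Jra than normal blood at 96 h, and infested blood at 120 h higher than at 96 h, with no overlap in either. Neither was called with all 6 groups in the fit (log2 1.00 ± 1.21 and 1.15 ± 0.95, edgeR adjusted p = 0.739 and 0.444). With only the groups compared in the fit both were called (log2 1.01 ± 0.23 and 1.13 ± 0.23, edgeR adjusted p = 0.0431 and 0.0108), and over all alternatives the adjusted p ranged from 0.0042 to 0.921 and from 3.88e-06 to 0.802. The Illumina log2 ratios were 0.32 and 0.88. At 120 h all infested libraries were above both normal ones, with a log2 difference of 2.07 ± 1.13 that was not called (edgeR adjusted p = 0.231), and the Illumina pair gave 186 CPM in the normal and 214 CPM in the infested library, a log2 ratio of 0.20. With age in normal blood the Illumina level went from 90.2 to 186 CPM, a log2 ratio of 1.00. With a log2 ratio of 1.03, kay was also past 2-fold in that pair, as was egr at 1.48, so that 3 members were, where 38.1% of genes were and the median ratio of all genes was 0.35. In TPM, with the pseudocount of 5 that all Illumina ratios carry, only 1 member was, egr at 1.22, with kay at 0.97 and Jra at 0.90. Without the pseudocount kay, at 59.21 and 120.99 TPM, was past 2-fold as well. The 120 h normal Illumina library held 760 CPM of summed male germline markers, against 18.8 CPM at 96 h and 140 CPM in infested 120 h blood. The part of this in the ratios that use that library was not tested. In nanopore libraries no member was called with age in normal blood, against 4.27% of all genes. No member had an unadjusted p under 0.05 there, and DESeq2 called 0.

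The Fos gene kay (FBgn0001297, 3R, 29765995 to 29794113, plus strand) gave no call as a whole in nanopore libraries, while the shares of its isoforms differed between infested and normal libraries by amounts given below. The gene level ranged from 48.7 to 90.0 CPM, and its log2 differences from -0.28 to 0.35 in the 7 comparisons of groups, none called. The annotation gives 5 isoforms that start at 4 sites and share the last 2 exons, of 328 and 2327 nucleotides. The first start, of kay-RD, has a 1593-nucleotide first exon of which 603 are coding, and gives a protein of 722 residues. kay-RA starts 6897 nucleotides further on (595 residues), and kay-RG from the same site with an extra exon of 153 nucleotides. kay-RB starts at 16614 nucleotides (546 residues, the shortest) and kay-RF at 22941 nucleotides (755 residues). The isoforms therefore differ in the N-terminal part of Fos and share the coding part of the last 2 exons, 328 and 1235 nucleotides.

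**Figure D4:**
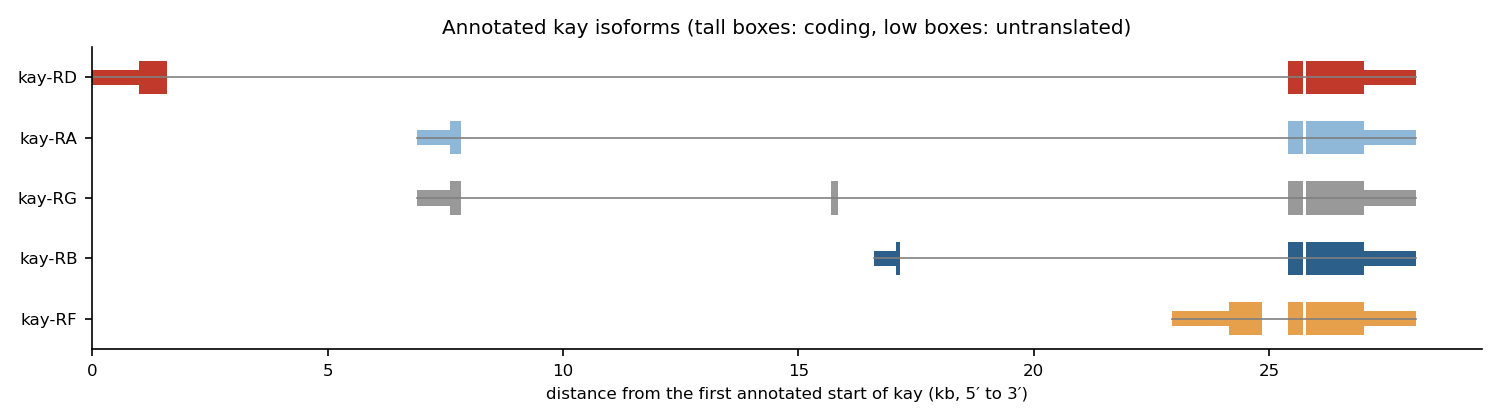
Annotated isoforms of kay drawn to scale against the distance in kb from the first start, with coding parts as tall boxes, untranslated parts as low boxes and introns as lines. All 5 share the last 2 exons, and kay-RD begins 6897 nucleotides before the next start.

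kay-RB was the leading nanopore isoform, with a mean share of 73.4% of the counts assigned to kay transcripts. The transcript tables assign 757.8 counts to kay, 65.4% of its 1158 gene counts, so shares rest on 11.4 to 98.4 counts per library. These counts hold fractions, and how reads were shared between isoforms is not stated in the labels or headers. In normal libraries the share of kay-RB was 85.7, 90.9 and 78.9% in lymph gland, 63.2 and 100% in blood at 96 h and 84.4 and 83.9% at 120 h. In infested libraries it was 74.0, 44.5 and 47.3% in lymph gland, 79.5, 80.5 and 84.6% in 96 h blood and 76.0, 54.0 and 47.3% in 120 h blood. Infested values lay below all normal ones in lymph gland and in 120 h blood, and between the 2 normal ones in 96 h blood. Over all strata the mean was 65.3% ± 16.6 (SD, n = 9) in infested and 83.8% ± 11.3 (SD, n = 7) in normal libraries, a difference of -18.6 percentage points. The exact two-sided permutation test within tissue and age, over 2000 arrangements, gave p = 0.0295 and, adjusted over the 2 isoforms tested, p = 0.059.

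kay-RD, from the first start, was listed in most infested libraries and in no normal one. Its counts were 14.8, 4.4 and 7.6 in infested lymph gland, a share of 15, 17.2 and 13.0%, 5.8, 0 and 0 in infested 96 h blood, where the first is a share of 9.45%, and 5.2, 16.2 and 11.8 in infested 120 h blood, a share of 10.1, 29.9 and 35.3%. All 7 normal libraries and the 120 h lymph gland had 0 counts, which allows shares of up to 3.93 to 26.3% depending on the library, for counting error only. kay-RD was thus seen in 7 of 9 infested and 0 of 8 normal nanopore libraries. It was singled out after its values were seen and has no test of its own. kay-RF was listed in 2 infested lymph gland libraries, with 3.4 and 9.6 counts, and at 0 in every other nanopore library.

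The Illumina tables gave kay-RD a larger share in each infested condition that both platforms covered. By the authors' percent per isoform, kay-RD made up 41.8% of kay in infested lymph gland, 0.26% in normal and 44.6% in infested blood at 96 h, and 2.1% in normal and 63.6% in infested blood at 120 h. All 3 infested libraries were far above both normal ones. As a share of estimated counts, kay-RD had 0.348% (exact 95% binomial interval 0.159 to 0.660%) and 2.78% (2.43 to 3.16%) in the normal libraries and 48.1% (46.7 to 49.4%), 50.9% (49.3 to 52.4%) and 69.3% (68.0 to 70.5%) in infested gland, 96 h blood and 120 h blood, intervals that cover counting error only and not the assignment of reads to isoforms. kay-RB had 41.2, 73.1, 37.6, 90.8 and 25.1% in infested gland, 96 h normal and infested blood, and 120 h normal and infested blood, and kay-RA 14.7, 22.9, 15.6, 6.7 and 10.5%. With infestation, gene-level kay went from 158 to 258 CPM at 96 h and from 327 to 363 CPM at 120 h, log2 ratios of 0.69 and 0.15. CPM is not corrected for transcript length. In TPM, which is, kay rose from 59.21 to 87.22 at 96 h but fell from 120.99 to 114.86 at 120 h. The direction at 120 h therefore depends on the unit, with 1 library per condition.

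**Figure D5:**
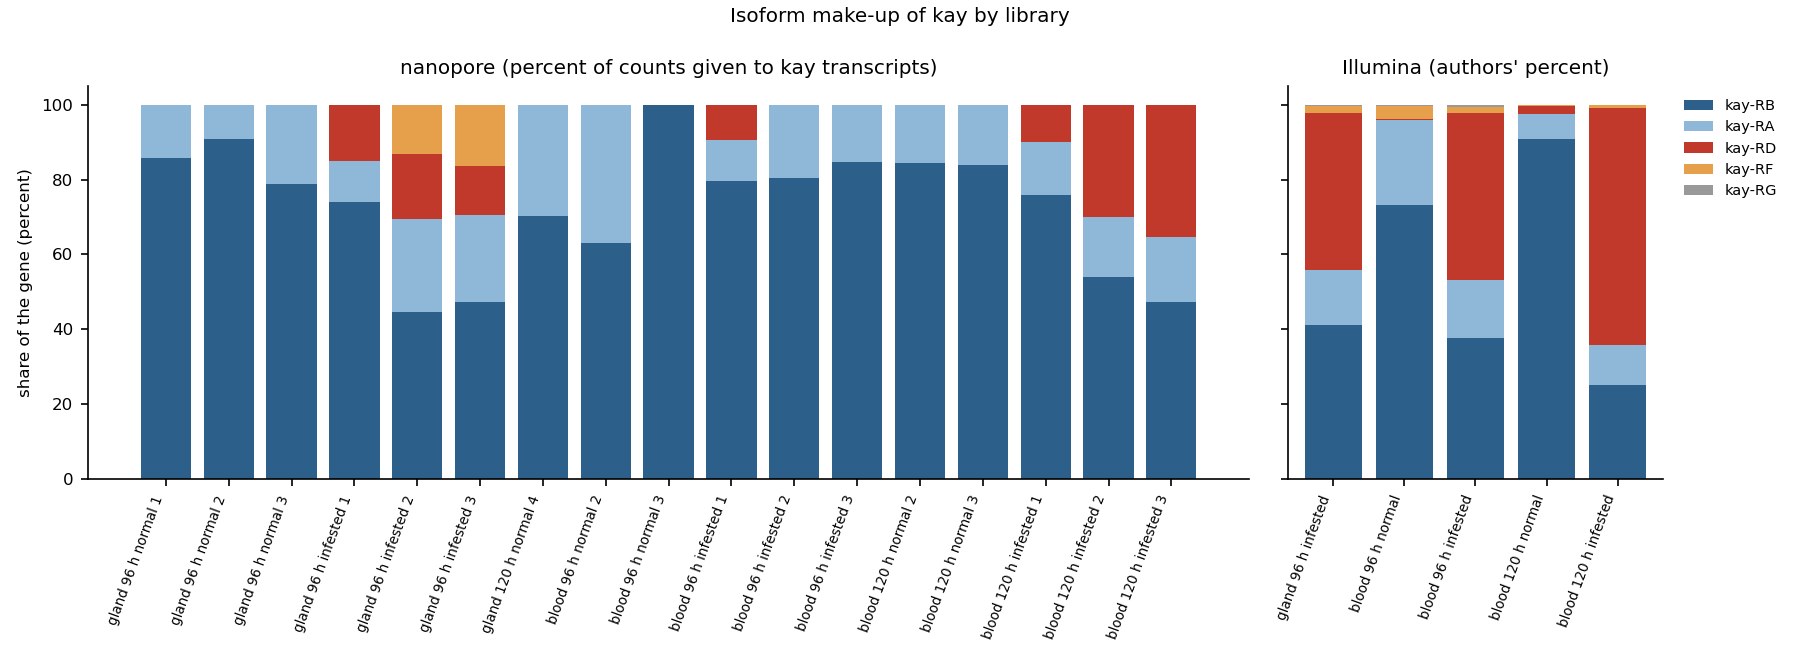
Share of each kay isoform in percent, stacked to 100, in 17 nanopore libraries (left, of the counts assigned to kay transcripts) and 5 Illumina libraries (right, the authors' percent). kay-RD (red) appears in 7 of 9 infested and 0 of 8 normal nanopore libraries, and reaches 41.8 to 63.6% in infested against 0.26 and 2.1% in normal Illumina libraries.

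edgeR's test of isoform usage over 1609 genes called none of the 4 members it could test, kay, bsk, msn and slpr, in any of the 5 comparisons run. For kay the adjusted p was 0.158 in lymph gland (unadjusted 0.00146, where 0.373% of genes were called), 0.153 in 120 h blood (unadjusted 0.00380, with 1.80% called) and 1 in 96 h blood (1.24% called), with age in normal blood (1.18% called) and between normal tissues (0.684% called). The smallest unadjusted p of the other 3 members was 0.0602, for msn between normal tissues. In blood both the lamellocyte markers and kay-RD were lowest in normal and highest in 120 h infested libraries. Infested gland did not follow that order in nanopore libraries, from few counts, with kay-RD at 13 to 17.2% against 0 to 9.45% in infested 96 h blood, and summed lamellocyte markers at 1698 to 2356 CPM against 4153 to 4399 CPM. In the Illumina libraries it did. There kay-RD had 48.1% of estimated kay counts in infested gland and 50.9% in infested 96 h blood, and summed lamellocyte markers 9109 and 15186 CPM. The part of these cells in the isoform share was not tested. Between tissues at 96 h the share of kay-RB was 81.5% ± 13.2 (SD, n = 5) in blood and 70.2% ± 19.7 (SD, n = 6) in gland (exact permutation p = 0.255, adjusted 0.255).

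The other members gave less isoform data. bsk was almost all bsk-RB, at 96.2% ± 4.42 (SD, n = 9) in infested and 92.1% ± 5.79 (SD, n = 7) in normal libraries (exact permutation p = 0.0775, adjusted 0.0775) and 92.5 to 96.7% in Illumina libraries. The 468 puc counts that were assigned to an isoform, of 629 in the 16 libraries, all went to puc-RA, which had 95.8 to 99.3% in Illumina libraries. The few counts of the receptor genes went to grnd-RC alone and, for wgn, to wgn-RA with 1 count for wgn-RB.

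The isoforms of egr differed between glands at low counts. egr-RB had 3 of 9, 3.5 of 10 and 5.5 of 13 assigned counts in normal gland and 0 of 11, 0 of 2 and 0 of 8 in infested gland, the rest being egr-RA. No infested gland listed egr-RB and every normal one did. egr passed the filter for isoform usage only with a transcript total of at least 10, where it was not called (edgeR unadjusted p = 0.00425, adjusted p = 0.382). In infested 120 h blood egr-RB had 14 of 42 counts, and egr-RA had 70.2 to 82.7% in Illumina libraries, 71.8% in infested gland.

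For slpr the platforms gave different isoforms, while msn-RA led msn on both, with a nanopore mean share of 58.0%. In Illumina libraries msn-RA had 63.2 to 76.6%. There msn-RB had 12.3 and 10.5% in normal blood at 96 h and 120 h, 3.05 and 1.83% in infested blood and 0% in infested gland. Nanopore counts of msn-RB were 18.9 of 62.6 in infested gland, all in replicate 1, and 16.4 of 45.2 in infested 120 h blood, against 0 of 9.52 in normal gland and 0 of 3.62 in normal 120 h blood. The normal totals are too low to show whether msn-RB followed the Illumina order. msn-RD had 21.7 and 14.5 counts in these infested groups, and only 25.3% of nanopore msn counts had an isoform. Nanopore slpr counts, 29.1% of them assigned, went to slpr-RC, with a mean share of 79.4%, and slpr-RA, with 20.6%. Illumina libraries gave slpr-RD 38.9 to 83.2%, an isoform at 0 in the nanopore tables.

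Nanopore transcript tables list no count for any isoform of hep or Jra. The pairs Jra-RA and Jra-RC, and hep-RD and hep-RF, share every exon and were given equal Illumina shares, 49.9 or 50% and 27.8 to 32.2%, so their make-up cannot be read from these tables.

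The phosphatase gene puc (FBgn0243512, 3R, 8105332 to 8122294, plus strand), a standard readout of JNK activity, was higher at 120 h than at 96 h in infested blood. It had 43.2, 54.5 and 50.7 CPM at 120 h and 38.4, 24.3 and 21.9 CPM at 96 h, without overlap. The log2 difference was 0.80 ± 0.22 (edgeR adjusted p = 0.0159). The call ended without 120 h replicate 2 or 3 or 96 h replicate 2 or 3 (edgeR adjusted p = 0.0530 to 0.0880), with only the groups compared (edgeR adjusted p = 0.0567) and with replicates 2 and 3 summed (edgeR adjusted p = 0.158). The same marker lists moved beside puc as beside msn, and their part was not tested. At 120 h the infested libraries also lay above the normal ones, at 40.7 and 33.4 CPM, with a log2 difference of 0.40 ± 0.25 that was not called (edgeR adjusted p = 0.291). The Illumina log2 ratio was 0.32 with age in infested blood and 0.27 with infestation at 120 h.

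In lymph gland puc pointed the other way. Normal gland had 38.3, 41.2 and 40.6 CPM and infested gland 23.3, 34.4 and 19.2 CPM, without overlap and with a log2 difference of -0.75 ± 0.24 (edgeR adjusted p = 0.0875, unadjusted 0.00644). No member was called in that comparison, where 5.13% of all genes were, 1 of 8 members had an unadjusted p under 0.05 and DESeq2 called 0. Without infested replicate 2, the shallowest library, puc passed (log2 -0.91, edgeR adjusted p = 0.0480), against adjusted p of 0.0773 to 0.279 in its other alternatives. In 96 h blood the normal values of 33.1 and 34.3 CPM lay within the infested range. No member was called there, where 4.97% of all genes were, no member had an unadjusted p under 0.05 and DESeq2 called 0. The infestation effects did not differ by test for any member, between 96 h blood and gland or between 120 h and 96 h blood, where 0.283% and 1.94% of all genes were called, none with an unadjusted p under 0.05. For puc the log2 difference between the effects was 0.50 ± 0.36 and 0.64 ± 0.37, with adjusted p of 0.841 and 0.464 in edgeR's test.

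Over the 8 tested members the median log2 difference was 0.018 with infestation in lymph gland, 0.021 in 96 h blood and 0.30 in 120 h blood, 0.62 with age in infested blood and -0.016 in normal blood, beside medians over all genes of -0.0019, 0, -0.031, 0.065 and 0.097. Comparisons that share a group are not independent of each other.

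Upstream and scaffold genes of the pathway were read from a list of 26, of which 23 were tested. Of these, 0 were called with infestation in gland, 2 rose and 0 fell in 96 h blood, 4 rose and 2 fell in 120 h blood, and 5 rose and 0 fell with age in infested blood. Rac2, a small GTPase of the Rac family that can activate the cascade, rose from 86.7 ± 1.47 to 164 ± 6.75 CPM (SD, n = 2 and 3) at 96 h and from 101 ± 1.3 to 422 ± 142 CPM at 120 h (edgeR adjusted p = 0.0475 and 2.62e-05). The small GTPase gene Ras85D rose from 99.9 ± 4.57 to 311 ± 25.2 CPM at 120 h (edgeR adjusted p = 2.25e-05). The kinase gene Tak1, whose product can activate Hep, rose with age in infested blood from 16.4 ± 0.979 to 30.5 ± 1.80 CPM (SD, n = 3 each; edgeR adjusted p = 0.0292). The tyrosine kinase gene Btk fell at 120 h from 39.4 ± 4.26 to 10.3 ± 2.99 CPM (edgeR adjusted p = 0.000535).

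Genes reported as outputs of JNK or AP-1 were read from a list of 20, of which 14 were tested. With infestation 1 rose in gland, 2 rose in 96 h blood, and 4 rose and 1 fell in 120 h blood, and 6 rose with age in infested blood. With age in normal blood 2 rose and 0 fell. At 96 h, 1 was higher and 2 were lower in normal blood than in normal gland. In infested samples 2 were higher and 3 lower in blood than in gland. Mmp1, a matrix metalloproteinase gene, rose in all 3 strata, from 2.55 ± 0.780 to 14.1 ± 4.02 CPM in gland (SD, n = 3 each; edgeR adjusted p = 0.000189), from 12.8 ± 1.26 to 26.1 ± 2.55 CPM in 96 h blood (edgeR adjusted p = 0.0494) and from 34.9 ± 2.18 to 146 ± 7.52 CPM in 120 h blood (edgeR adjusted p = 2.19e-06). The cytokine gene upd3 rose at 120 h from 3.33 ± 1.72 to 34.9 ± 21.4 CPM (edgeR adjusted p = 0.00216), and Atf3, a basic leucine zipper factor, fell from 45.2 ± 0.426 to 21.3 ± 1.22 CPM (edgeR adjusted p = 0.0236). The filamin gene cher, also in the lamellocyte list, rose from 150 ± 10.7 to 708 ± 211 CPM (edgeR adjusted p = 0.000127).

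Among 8 tested genes of the other MAP kinase branches, p38a, a stress-activated p38 kinase, rose with infestation in all 3 strata. It went from 17.1 ± 4.55 to 32.7 ± 5.15 CPM in gland (SD, n = 3 each; edgeR adjusted p = 0.0463), from 20 ± 3.43 to 49.5 ± 6.74 CPM in 96 h blood (edgeR adjusted p = 0.0159) and from 28.6 ± 6.78 to 106 ± 16.2 CPM in 120 h blood (edgeR adjusted p = 4.22e-05), where p38b rose as well. Of 10 other basic leucine zipper factors 0 were called with infestation at 96 h in either tissue, and 1, Pdp1, fell in 120 h blood, from 84 ± 12 to 34 ± 14.9 CPM (edgeR adjusted p = 0.0381). Counts in these lists stand beside the shares of all genes given above and are not called particular to them. The lists were chosen with earlier results of these data known. Their genes are given from the fit of all 6 groups only, with no alternative fit. Calls of Rac2 and Mmp1 in 96 h blood and of p38a in gland lie near the threshold. Over all genes, calls in gland went from 363 to 199 without infested replicate 1.

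In the 120 h lymph gland, the single library of the other kit, egr had 4.66 CPM, msn 14.9 CPM, slpr 30.7 CPM, hep 21.2 CPM, bsk 46.1 CPM, Jra 37.9 CPM, kay 34.7 CPM and puc 26.5 CPM, without TMM scaling. On that scale the 96 h normal glands had 7.67 to 12 CPM of egr, 53.7 to 61.8 CPM of bsk, 51.3 to 73.2 CPM of kay and 35.2 to 39.1 CPM of puc, all above the 120 h library. Age and kit cannot be told apart there.

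For members that gave a call, the genes most like them in level over the 16 libraries, by Pearson correlation of log2 CPM, were Gapdh2 (r = 0.84), Smurf (r = 0.83) and dally (r = 0.80) for egr, Spn28Dc (r = 0.94), Ance-5 (r = 0.89) and Acer (r = 0.89) for hep, gry (r = 0.87), sqz (r = 0.76) and Pgm2a (r = 0.76) for msn, and MED17 (r = 0.76), Cont (r = 0.75) and hrg (r = 0.74) for puc. The ranking covered the 7076 tested genes less those known only by an annotation number or identifier. These correlations are over libraries that share groups and depth, and are given as a description. Between members, the correlation ranged from -0.66 for hep and kay to 0.53 for slpr and hep.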

How the data were processed

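Each library was deposited as a table of its own. Nanopore gene counts and transcript counts are raw read counts as deposited by the authors, the transcript counts with fractions whose origin is not stated. Illumina tables hold estimated counts, TPM and the percent of each isoform, per the file headers. The submitters' processing notes list, with no role, minimap2 2.17-r941, RSEM 1.3.1, STAR 2.5.3a, FastQC 0.11.8 and StringTie 2.1.3. For the genome build, the counting rule and the strand setting the sources used here give nothing. Coordinates are from the BDGP6.54 annotation, in which 36 of 36 member transcripts in both had the authors' length. Of 13853 nanopore identifiers 13415 were in that annotation. Apart from these, 76 gene identifiers of the Illumina transcript tables that it lacks were named through their transcripts. Reads the authors listed as ambiguous (0.498 to 1.29% in gene tables, 22.3 to 28% in transcript tables) or without a feature (0.379 to 0.777% in gene tables) were kept out.

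Gene counts of 16 libraries in 6 groups were filtered (filterByExpr, at least 10 counts and 15 in total), scaled by TMM and tested with edgeR 4.0.16 (quasi-likelihood, 10 residual degrees of freedom, R 4.3.3) over 7076 genes, with limma 3.58.1 loaded, at a Benjamini-Hochberg adjusted p of 0.05. CPM are TMM-scaled. Transcript counts were rounded for the test of isoform usage (diffSpliceDGE in edgeR), and single shares by exact permutation within tissue and age in libraries with at least 10 transcript counts. Illumina pairs have no replicates. Log2 ratios are of CPM, or of TPM where named, plus a pseudocount of 5, which understates changes of low genes. Past 2-fold was counted among genes with at least 10 CPM (or TPM). Alternatives were DESeq2 1.42.0, other size factors, filters and sets of groups, summed replicates, a replicate block and leaving out each library. Scripts were tested on simulated data and used Python 3.11.15, pandas 2.3.3, scipy 1.17.1 and matplotlib 3.10.9. Limits that 0 counts allow use 3 counts.

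Same-numbered samples were taken as paired where, with 3 or more pairs, each correlation of their deviations from the group means was over 0.1. This held only for infested blood at 96 h and 120 h (correlations 0.295, 0.168 and 0.133). The tests given above used no block. The replicate block, as fitted, gave same-numbered libraries a shared effect over all blood groups, normal ones included, which is wider than this pairing. With it both calls in infested blood stayed in place, with an adjusted p of 0.0293 for msn and 0.0155 for puc in edgeR's test. All members are named. Of each list, up to 4 called genes with the smallest p are named, and isoforms with a mean share of at least 10%. kay-RD, kay-RF, kay-RG, slpr-RD and the isoforms of hep and Jra were named after their values were seen. The members and lists were chosen with earlier results of these data known.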

Additional observations from a re-analysis of the deposited data

How the results depend on the processing

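Counts of called members moved as follows, and the cause was not tested. They are among the 8 tested, except that the fit with no filter, over 13721 genes, also took in grnd and wgn. With infestation, the lymph gland count of 0 was 0 to 1 when each library was left out. The 96 h blood count of 0 was 1 with no filter and 1 with only the groups compared. The 120 h blood count of 1 was 0 with replicates 2 and 3 summed, 3 with no filter, 2 with the replicate block and 0 to 1 with a library left out. With age in infested blood the count of 2 was 0 with replicates summed, 1 with DESeq2 and 0 to 2 with a library left out. Between normal tissues the count of 1 was 0 with replicates summed, DESeq2, only the groups compared, the replicate block, RLE size factors or the stricter filter, and 0 to 1 with a library left out. Between infested tissues the count of 0 was 1 with no filter and 0 to 2 with a library left out. The infestation count of isoform shares, 0 of 2, was 1 with a minimum of 20 transcript counts and 0 to 2 with a library left out. The Illumina count of 3 with age in normal blood was 1 in TPM plus the pseudocount of 5.

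With a library left out, log2 differences changed sign, over the ranges given, for Jra (-7.90 to 0.74), hep (-0.41 to 0.0012) and msn (-0.20 to 0.91) with infestation in gland, Jra (-8.88 to 0.90) and egr (-4.34 to 3.86) with age in normal blood, and egr (-0.96 to 0.63), msn (-1.07 to 0.036) and puc (-0.015 to 0.41) between infested tissues. Of 958 member values compared, 48 changed sign within 1 SE of 0 and were counted as unchanged.

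Over all genes the calls moved from 363 to between 199 and 656 in gland, from 352 to between 71 and 744 in 96 h blood, from 1375 to as few as 435 in 120 h blood, from 302 to between 26 and 726 with age in normal blood, from 1725 to between 799 and 2706 in infested blood, from 531 to between 215 and 893 between normal and from 780 to as few as 431 between infested tissues, and from 20 to between 1 and 183 and 137 to between 0 and 488 for the differences of effects. The calls also rose to as many as 1607 in 120 h blood and 1025 between infested tissues. Calls of isoform usage are given for fits with more than 1 library in each group compared. They moved from 19 to between 0 and 41 with age, from 29 to between 15 and 41 in 120 h blood and from 20 to between 2 and 27 in 96 h blood. In gland they moved from 6 to between 2 and 29, and between tissues from 11 to between 4 and 23.

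Outside infested blood, no other set of 3 same-numbered pairs had every correlation over 0.1 and the remaining sets have only 2 pairs (correlations -0.100 to 0.176 in all), so the replicate block there is given as a count only. The block changed no other count of called members. Depth limits egr, the receptor genes and all isoform shares.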
